A study of Mus musculus with 2 samples.

Results

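Respiratory chain genes of both genomes were followed through single-cell RNA sequencing of intestinal adenoma organoids: the 13 protein-coding genes of mitochondrial DNA and the nuclear genes whose symbols begin with Nduf, Uqcr, Atp5 or Cox4 to Cox8 or are Sdha to Sdhd. The symbol rule found 105 genes among the 27514 that carry the same Ensembl identifier in both count tables. Of these, 13 are mitochondrially encoded and 92 are nuclear, and the nuclear ones hold 82 genes for subunits, 8 Ndufaf assembly factors of complex I and 2 others, Cox7a2l and Atp5s. The rule uses names only and no measured value, but it was chosen with earlier results of these data known.

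The organoids were grown from adenomas of C57BL/6 mice with the genotype ApcMin/+, a truncating allele of the tumour suppressor Apc that is a standard model of intestinal polyposis. One culture received RSPO1-Fc, an Fc fusion of the Wnt agonist R-spondin 1, and the control culture did not. The mice were 17 weeks old, both cultures carried ApcMin/+, and a wild-type Apc culture was not analysed here. RSPO1-Fc was used at 10 μg/ml per the treatment protocol, while a second label of the same sample gives the number in milligrams. Each culture gave 1 droplet library, so the comparison has no replicate check and no test between the cultures was possible. The control table has the longer gene and barcode lists and a later software version in its header, so chemistry and reference cannot be told apart from RSPO1-Fc. Xist, the RNA of X inactivation, had 3 UMIs in RSPO1-Fc and 100820 in control epithelial cells, and the Y-linked Ddx3y had 2366 and 0, so the mouse of origin cannot be told apart from RSPO1-Fc either.

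The respiratory chain passes electrons from NADH and succinate through complexes I, II, III and IV to oxygen, and complex V, the ATP synthase, uses the proton gradient that complexes I, III and IV build. Mitochondrial DNA encodes the membrane core of complexes I, III, IV and V and no part of complex II. The other subunits are encoded in the nucleus, made in the cytosol and imported, so that each mixed complex draws on both genomes. In the intestine, oxidative metabolism is known to differ between crypt and villus cells, and mitochondrial activity has been tied to the fate of stem and Paneth cells.

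Transcripts were counted as unique molecular identifiers (UMIs) at their 3′ ends, and the libraries held 89437327 (RSPO1-Fc) and 91675581 (control) UMIs. Barcodes above a UMI limit of each library, lower for RSPO1-Fc, were called cells, 2767 in the RSPO1-Fc and 2269 in the control library, and no called barcode was shared. Cells with at least 5 UMIs of Epcam, an epithelial adhesion molecule, were taken as epithelial, 2751 in the RSPO1-Fc and 1881 in the control library, with medians of 23509 and 27696 UMIs per cell. The remaining 388 control cells (median of 14547.5 UMIs) served as non-epithelial cells of the same library. The 16 RSPO1-Fc cells below the limit were not used. All 7 epithelial markers were detected in every one of the 3 groups, at summed levels, scaled to the group's total (CPM), of 9623 CPM in RSPO1-Fc epithelial cells, 116 CPM in control non-epithelial cells and 7760 CPM in control epithelial cells. Among non-epithelial cells, 179 carried mainly macrophage, 78 endothelial, 71 fibroblast and 21 smooth muscle or pericyte markers. A further 2 had T, NK or B cell markers and 37 had no leading list.

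Transcripts of mitochondrial DNA were lower, and nuclear respiratory chain transcripts higher, in RSPO1-Fc than in control epithelial cells. The 13 mitochondrially encoded genes made up a median of 3.40% of a cell's UMIs in RSPO1-Fc epithelial cells and 6.24% in control epithelial cells. The 92 nuclear genes made up 3.58% in RSPO1-Fc and 2.96% in control epithelial cells. Summed over cells, there were 1.01 mitochondrial UMIs per nuclear one in RSPO1-Fc epithelial cells and 2.10 in control epithelial cells. Over genes, log2 ratios of RSPO1-Fc to control had a median of −0.88 in the mitochondrially encoded genes, 0.20 in the nuclear subunits and −0.19 in all 10047 genes with a mean of at least 5 CPM. The 2 genomes were thus 1.08 log2 units apart, the mitochondrial one below the nuclear one. Ratios are log2((CPM + 1)/(CPM + 1)) of UMIs summed over cells, while folds are given without the added 1 CPM. Intervals are 95% intervals that cover counting error only, since PCR, cells and cultures add variation that 1 library per group cannot show.

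Cell by cell, the distributions overlapped. In RSPO1-Fc epithelial cells the mitochondrial share ran from 2.48% at the 5th to 7.73% at the 95th percentile, against 3.33% and 11.2% in control epithelial cells. Of the RSPO1-Fc epithelial cells, 92.3% lay below the control median of the mitochondrial share, and 87.9% lay above the control median of the nuclear share. Cells with more than 20% mitochondrial UMIs, a common sign of damage, were few, 22 in RSPO1-Fc and 16 in control epithelial cells, and without them the medians over genes given above were still −0.88 and 0.20. Among barcodes far below the cell limits, with at most 500 UMIs, which hold mainly free RNA, the mitochondrial genes took 4.19% of UMIs in the RSPO1-Fc and 4.46% in the control library, a smaller gap than in cells. The nuclear genes took 4.06% of free RNA in the RSPO1-Fc and 3.09% in the control library. After thinning every cell to 5000 UMIs, Spearman's rho between the mitochondrial share and the nuclear share of the remaining UMIs was near 0 in RSPO1-Fc (−0.00) and control (−0.08) epithelial cells, too weak to read as a relation.

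**Figure D1:**
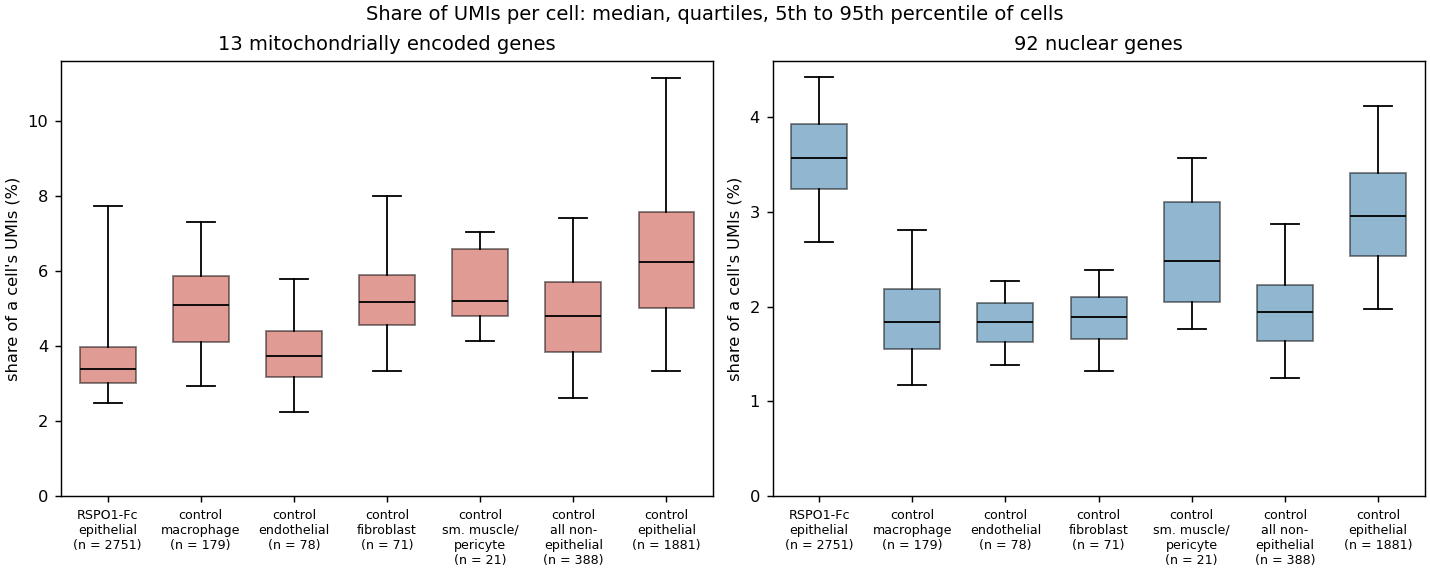
Share of each cell's UMIs (%) from the 13 mitochondrially encoded (left) and the 92 nuclear (right) respiratory chain genes, for RSPO1-Fc epithelial cells, control cells by marker group and control epithelial cells; lines are medians, boxes quartiles and whiskers the 5th to 95th percentile of cells. The median mitochondrial share is 3.40% in RSPO1-Fc and 6.24% in control epithelial cells, while the nuclear share is 3.58% and 2.96%.

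Of the 13 mitochondrially encoded genes, 12 were at least 1.5-fold lower in RSPO1-Fc epithelial cells, a limit that 32.3% of all genes tested passed in that direction, and 4 were at least 2-fold lower, beside 19.1% of all genes. With TMM factors in place of CPM, 12 were still lower, beside 4333 of all 10047 genes, and 6 were at least 1.5-fold lower, beside 2118 of all genes. The exception was mt-Nd1, a membrane subunit of complex I, with 3566 CPM in RSPO1-Fc and 3476 CPM in control epithelial cells. Its log2 ratio was 0.04, and it was −0.01 when levels were scaled without mitochondrial genes, 0.38 with TMM and 0.37 with DESeq2 factors. As counting starts from the 3′ end, the last bases of mt-Nd1 and of the 4 genes with the lowest ratios are shown as the reference annotation ends them (GENCODE M21, GRCm38), 5′ to 3′ on the coding strand, with runs of at least 4 A in capitals.
mt-Nd1, chrM:3648-3707, plus strand: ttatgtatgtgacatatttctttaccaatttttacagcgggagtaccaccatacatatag
mt-Nd5, chrM:13506-13565, plus strand: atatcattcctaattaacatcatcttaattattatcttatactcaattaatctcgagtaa
mt-Nd3, chrM:9747-9806, plus strand: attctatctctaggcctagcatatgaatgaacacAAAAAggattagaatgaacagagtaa
mt-Co2, chrM:7637-7696, plus strand: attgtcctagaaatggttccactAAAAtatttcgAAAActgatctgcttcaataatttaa
mt-Nd6, chrM:13552-13611, minus strand: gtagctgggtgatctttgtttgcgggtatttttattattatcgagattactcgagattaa
Such runs were present in mt-Nd3 and mt-Co2 and not in the last bases of the other genes shown.

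Complex I takes 7 of its subunits from mitochondrial DNA, and they spanned the range. mt-Nd5, a proton-pumping subunit encoded at chrM:11742-13565, had 201 CPM in RSPO1-Fc and 586 CPM in control epithelial cells, 2.92-fold lower (95% interval 2.86 to 2.97). mt-Nd3 had 409 CPM in RSPO1-Fc and 1124 CPM in control cells, 2.75-fold lower. mt-Nd6, the only one of the 13 on the minus strand, where it overlaps the end of mt-Nd5 on the other strand, had 13.2 CPM in RSPO1-Fc and 31.6 CPM in control cells, 2.39-fold lower (2.21 to 2.58). These had the lowest ratios of the complex, and their counting intervals lay beyond 2-fold. mt-Nd2 (1060 CPM in RSPO1-Fc, 2075 CPM in control) had a log2 ratio of −0.97 and mt-Nd4 (1710 and 3144 CPM) of −0.88. mt-Nd4l, whose annotated end overlaps mt-Nd4 on the same strand so that reads there cannot be assigned, had 99.9 CPM in RSPO1-Fc and 182 CPM in control cells (−0.86).

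The remaining mitochondrial genes lay closer together. mt-Cytb, the cytochrome b of complex III, had 3020 CPM in RSPO1-Fc and 5026 CPM in control epithelial cells (log2 ratio −0.73). Of the catalytic core of complex IV, mt-Co1 had 7658 CPM in RSPO1-Fc and 12141 CPM in control cells (−0.66), and mt-Co3, which overlaps mt-Atp6, had 6645 and 12871 CPM (−0.95). mt-Co2, which holds the copper site that accepts electrons from cytochrome c, had 4305 CPM in RSPO1-Fc and 10130 CPM in control cells, 2.35-fold lower. The proton channel genes of complex V, which overlap each other, differed alike, with 7377 CPM of mt-Atp6 in RSPO1-Fc and 12982 CPM in control cells (−0.82), and 71.7 and 130.9 CPM of mt-Atp8 (−0.86). Among mitochondrial UMIs, mt-Nd1 took 9.87% in RSPO1-Fc and 5.44% in control epithelial cells. The same gene took 12.4% of mitochondrial UMIs in free RNA of the RSPO1-Fc library and 4.94% in free RNA of the control library. Its larger share was therefore also seen outside cells.

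**Figure D2:**
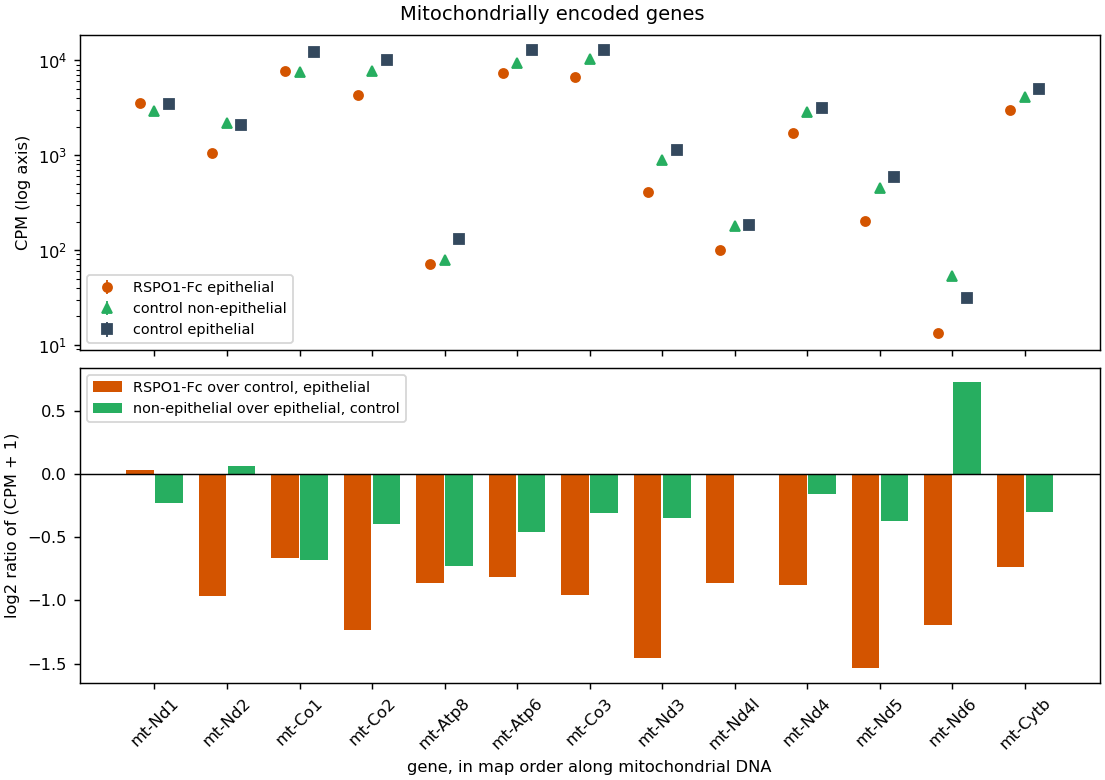
Upper panel, level in CPM (log axis) of the 13 mitochondrially encoded genes in map order, in RSPO1-Fc epithelial, control non-epithelial and control epithelial cells, with 95% counting intervals that are mostly smaller than the symbols; lower panel, log2 ratios of both comparisons. In RSPO1-Fc epithelial cells 12 genes are lower than in control epithelial cells and mt-Nd1 is at 0.04, a value that is −0.01 when levels are scaled without mitochondrial genes and 0.38 with TMM factors.

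The nuclear subunits differed little gene by gene but mostly in one direction. Of 82 subunit genes, 76 reached a mean of 5 CPM, and 56 of these were higher and 20 lower in RSPO1-Fc epithelial cells, so that 73.7% of the subunits were higher, beside 40.2% of all genes. With TMM scaling, which moves ratios up by 0.34, 70 were higher and 6 lower, so that 92.1% were higher, beside 56.9% of all genes, and the median of all genes was then 0.13. Relative to the median of all genes, the nuclear subunits were 0.40 higher and the mitochondrially encoded genes 0.69 lower. At least 1.5-fold higher were 9 subunits, beside 15.1% of all genes tested, and at least 1.5-fold lower were 2, beside 32.3%. In either direction 11 passed 1.5-fold, beside 47.5% of all genes, and 5 passed 2-fold, beside 26.3%. In CPM the subunits thus passed 1.5-fold no more often than other genes, and their ratios were mostly small and above 0. With TMM scaling 35 were at least 1.5-fold higher and 2 lower, while 2809 of all genes were higher and 2118 lower by that limit. The 6 genes below the filter, Cox4i2, Cox6a2, Cox7b2, Cox8b, Cox8c and Ndufa4l2, all encode alternative isoforms and are described with the isoforms.

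In each of the complexes I, III, IV and V the mitochondrial median lay between 1.06 and 1.16 below the nuclear one. For complex I the medians were −0.97 (7 mitochondrial genes) and 0.13 (36 nuclear), for complex III −0.73 (1) and 0.42 (8), for complex IV −0.95 (3) and 0.21 (13), and for complex V −0.84 (2) and 0.23 (15). The gap between the genomes was therefore not set by 1 complex. Complex II, which has no mitochondrial gene, had a median of 0.48 over 4 genes.

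**Figure D3:**
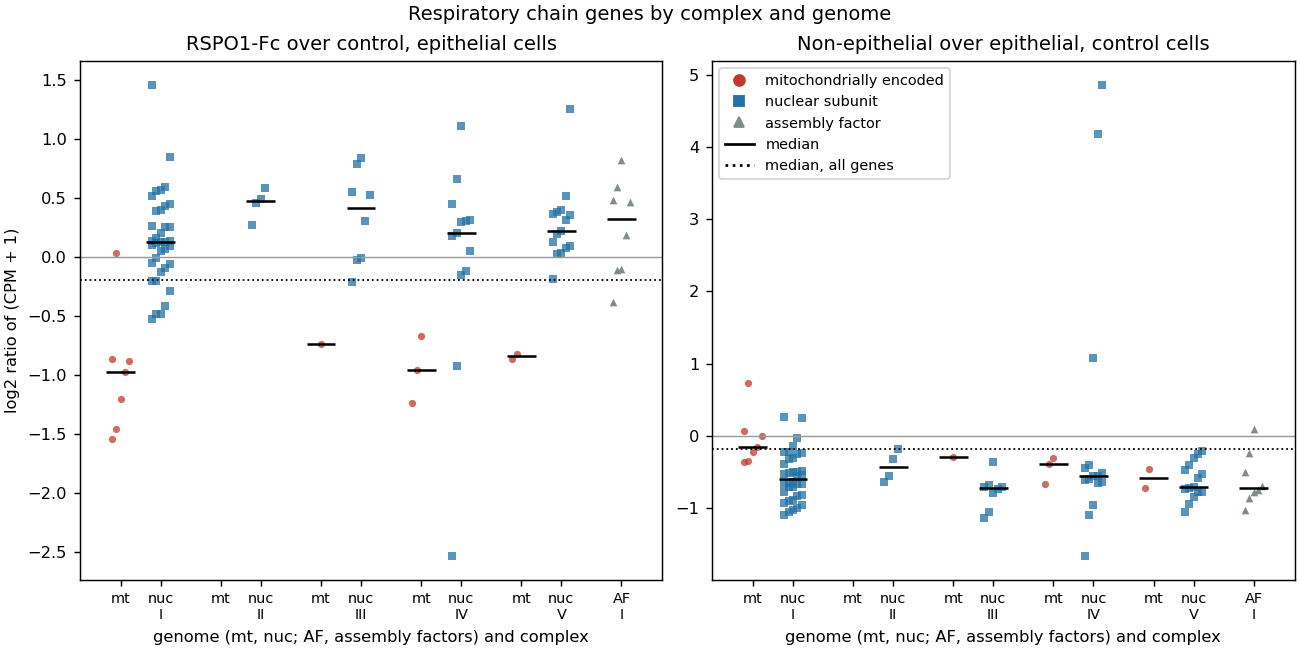
Log2 ratios of (CPM + 1) of the members with a mean of at least 5 CPM, by complex and genome, for RSPO1-Fc over control epithelial cells (left) and control non-epithelial over control epithelial cells (right); each symbol is a gene, black lines are medians and the dotted line is the median of all genes. On the left the mitochondrial medians lie between −0.97 and −0.73 and the nuclear ones between 0.13 and 0.48, and on the right the nuclear medians lie below the mitochondrial ones in each mixed complex.

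In complex I, 24 of 36 nuclear subunits were higher in RSPO1-Fc epithelial cells. The highest ratio was that of Ndufa3, an accessory subunit at chr7:3617373-3620327, with 377 CPM in RSPO1-Fc and 136 CPM in control cells, 2.77-fold higher (2.71 to 2.84). Its level in free RNA differed too, with 461 CPM in the RSPO1-Fc and 187 CPM in the control library. Ndufv3, an accessory subunit of the NADH-oxidising arm, had 249.8 CPM in RSPO1-Fc and 138 CPM in control cells, 1.81-fold higher. Both stood apart from the rest of the complex, whose next ratio was 0.59 (Ndufa2, 553 CPM in RSPO1-Fc and 366 CPM in control). Ndufs1, the largest core subunit and a carrier of iron-sulfur clusters, was among the lowest, with 43.5 CPM in RSPO1-Fc and 62.8 CPM in control cells (log2 ratio −0.52). Ndufc2, an accessory membrane subunit, had 318 CPM in RSPO1-Fc and 443 CPM in control cells (−0.48). By UMIs counted, which are not divided by length, the leading nuclear subunit was Ndufa2 in RSPO1-Fc cells and Ndufa13 (384 CPM in RSPO1-Fc, 467 CPM in control; log2 ratio −0.28, and 0.06 with TMM factors) in control cells. Of the 8 Ndufaf assembly factors, 5 were higher and their median ratio was 0.33. Among them Ndufaf4 had the highest ratio (77.1 CPM in RSPO1-Fc, 43.1 CPM in control, log2 ratio 0.82).

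All 4 genes of complex II, which is both the succinate dehydrogenase of the Krebs cycle and an entry point of electrons, were higher in RSPO1-Fc epithelial cells. Sdha, the flavoprotein that oxidises succinate, had 158 CPM in RSPO1-Fc and 104 CPM in control cells (log2 ratio 0.59). Sdhb, the iron-sulfur subunit and the most counted of the complex, had 203 CPM in RSPO1-Fc and 144 CPM in control cells (0.50). Of the membrane anchors, Sdhd had 167 CPM in RSPO1-Fc and 121 CPM in control cells (0.46), and Sdhc had 128 CPM in RSPO1-Fc and 106 CPM in control cells (0.27). Of the 4 genes, only Sdha passed 1.5-fold.

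In complex III, 5 of 8 nuclear subunits were higher. Uqcrb, a small subunit near the ubiquinone site, had 658 CPM in RSPO1-Fc and 367 CPM in control epithelial cells (log2 ratio 0.84), but its 3′ end has a near-identical copy elsewhere in the genome, so its count is uncertain. Uqcrc1, one of the core proteins on the matrix side, had 278 CPM in RSPO1-Fc and 159.6 CPM in control cells, 1.74-fold higher. At the low end, Uqcrh, the hinge protein, had 747 CPM in RSPO1-Fc and 862 CPM in control cells (−0.21), and Uqcr10 had 615 and 623 CPM (−0.02), and both ratios turned positive with TMM (0.13 and 0.32) and DESeq2 factors. The most counted subunit was Uqcr11 in RSPO1-Fc cells (780 CPM, against 532 CPM in control, uncertain because of a near-identical copy) and Uqcrh in control cells.

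In complex IV, Cox6a1, the widely expressed form of a regulatory subunit at chr5:115345642-115348981, had 798 CPM in RSPO1-Fc and 369 CPM in control epithelial cells, 2.16-fold higher (2.13 to 2.20). Cox6b1, which lies on the cytochrome c side, had 1132 CPM in RSPO1-Fc and 715 CPM in control cells, 1.58-fold higher. These were the 2 subunits of the complex past 1.5-fold higher. Cox6b2 and Cox7a1 were the 2 past 1.5-fold lower, and Cox6b2 passed the filter through its control level. The most counted subunit was Cox4i1 in RSPO1-Fc cells (1509 CPM, against 1214 CPM in control) and Cox8a in control cells (1365 CPM in RSPO1-Fc, 1317 CPM in control).

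In complex V, 14 of 15 nuclear subunits were higher. Atp5k, subunit e of the membrane part at chr5:108433244-108434448, had 537 CPM in RSPO1-Fc and 224 CPM in control epithelial cells, 2.40-fold higher (2.36 to 2.45). Atp5l, subunit g, had 911 CPM in RSPO1-Fc and 633 CPM in control cells (log2 ratio 0.52), an uncertain count because several processed pseudogenes share its 3′ end. Atp5c1, the rotating gamma subunit, was the 1 gene with a lower level, 381 CPM in RSPO1-Fc and 433 CPM in control cells (−0.18), a ratio that turned positive with TMM (0.16) and DESeq2 (0.15) factors. Atp5b, the catalytic beta subunit and the most counted, had 944 CPM in RSPO1-Fc and 918 CPM in control cells (0.04), and Atp5e had 818 and 804 CPM (0.02). Apart from Atp5k, all ratios of the complex lay between −0.18 and 0.52.

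Promoters of nuclear members are known to carry sites for NRF1, GABP of the ETS family and YY1, which tie these genes together. The promoter stretches of Ndufa3, Sdha, Uqcrc1, Cox6a1 and Atp5k, the genes with the highest ratio in each complex apart from the uncertain Uqcrb, are given from RefSeq (GRCm38.p6), 5′ to 3′ toward the gene, with bases that match GCGCANGCG (NRF1), CCGGAAG (ETS) or AAGATGGCG (YY1) on either strand in capitals.
Atp5k, chr5:108434350-108434649, minus strand: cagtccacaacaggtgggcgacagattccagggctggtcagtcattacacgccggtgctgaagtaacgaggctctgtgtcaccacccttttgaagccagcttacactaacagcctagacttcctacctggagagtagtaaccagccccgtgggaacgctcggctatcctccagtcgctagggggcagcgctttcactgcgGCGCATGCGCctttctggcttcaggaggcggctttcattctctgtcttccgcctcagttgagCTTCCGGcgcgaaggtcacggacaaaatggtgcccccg
Cox6a1, chr5:115348909-115349208, minus strand: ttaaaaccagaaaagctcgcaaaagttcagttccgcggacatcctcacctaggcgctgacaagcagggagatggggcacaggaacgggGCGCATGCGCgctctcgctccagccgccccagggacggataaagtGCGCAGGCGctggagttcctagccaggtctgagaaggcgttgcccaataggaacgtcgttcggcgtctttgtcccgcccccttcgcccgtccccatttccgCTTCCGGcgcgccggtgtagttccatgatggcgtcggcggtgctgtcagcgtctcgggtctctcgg
Uqcrc1, chr9:108936398-108936697, plus strand: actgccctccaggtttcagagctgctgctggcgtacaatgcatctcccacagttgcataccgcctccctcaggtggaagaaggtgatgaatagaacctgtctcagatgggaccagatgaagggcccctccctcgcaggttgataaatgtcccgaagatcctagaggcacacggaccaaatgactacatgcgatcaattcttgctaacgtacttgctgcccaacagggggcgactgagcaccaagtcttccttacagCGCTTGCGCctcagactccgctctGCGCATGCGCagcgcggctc
Sdha, chr13:74350191-74350490, minus strand: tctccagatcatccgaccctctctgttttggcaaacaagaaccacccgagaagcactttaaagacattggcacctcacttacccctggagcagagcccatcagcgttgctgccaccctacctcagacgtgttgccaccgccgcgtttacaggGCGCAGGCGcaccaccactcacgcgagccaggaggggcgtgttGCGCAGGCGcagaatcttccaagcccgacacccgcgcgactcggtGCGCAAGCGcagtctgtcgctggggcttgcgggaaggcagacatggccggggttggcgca
Ndufa3, chr7:3617123-3617422, plus strand: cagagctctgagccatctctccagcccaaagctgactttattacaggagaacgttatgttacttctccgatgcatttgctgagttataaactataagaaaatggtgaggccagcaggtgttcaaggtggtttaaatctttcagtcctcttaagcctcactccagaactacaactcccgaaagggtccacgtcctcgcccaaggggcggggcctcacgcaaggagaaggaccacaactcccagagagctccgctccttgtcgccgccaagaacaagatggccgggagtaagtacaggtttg
All but Ndufa3 hold the NRF1 motif, and Ndufa3 holds none of the 3. Over the 74 members with a promoter entry, 28.4% held the NRF1 motif, against 6.47% of all 27025 promoters of the same length. The ETS motif was in 23.0% of member promoters and 9.12% of all, and the YY1 motif in 9.46% and 1.49%. GGGCGGG (SP1) and CCAAT (NF-Y) were nearer to the share of all promoters, with 35.1% against 25.8% and 44.6% against 37.9%. All promoters include those of genes below the filter. Among genes above it, the NRF1 motif was present in 1223 and absent in 6725, beside 19 and 45 subunits. For ETS the counts were 1630 and 6318, beside 15 and 49, so nearly as common in both. For YY1 they were 301 and 7647, beside 6 and 58, and for NF-Y 3119 and 4829, beside 28 and 36. For SP1 they were 3997 and 3951, beside 20 and 44, so this motif was less common in subunits. Subunits with the NRF1 motif had a median log2 ratio of 0.40 (19 genes) and those without it of 0.13 (45 genes), while among all genes the medians were −0.11 with the motif and −0.20 without. The other motifs gave subunit medians of 0.46 with and 0.17 without it for ETS, 0.36 and 0.15 for YY1, 0.22 and 0.16 for SP1, and 0.09 and 0.24 for NF-Y, so the order differed between motifs. These groups were formed after the ratios were known, the motif matches are letters and not sites, and the Nrf1 gene itself had 24.8 CPM in RSPO1-Fc and 22.7 CPM in control epithelial cells.

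Control non-epithelial cells, set against epithelial cells of the same library and chemistry, were lower in both genomes, and more so in the nuclear one. Log2 ratios of non-epithelial to epithelial cells had a median of −0.31 in the 13 mitochondrially encoded genes, −0.63 in 78 nuclear subunits and −0.19 in all 11015 genes tested. Of the subunits, 73 were lower, where the median of −0.19 means that most of all genes were lower too. At least 1.5-fold lower were 42, a limit passed by 30.3% of all genes in that direction. At least 1.5-fold higher were 3, the isoform genes Ndufa4l2, Cox4i2 and Cox6b2, beside 25.4% of all genes. Ndufa4l2 and Cox4i2 passed the filter only through their non-epithelial level, so the filter fixed their direction. A median of 4.80% of UMIs in non-epithelial and 6.24% in epithelial cells was mitochondrial, and 1.94% in non-epithelial and 2.96% in epithelial cells was nuclear respiratory chain. Mitochondrial UMIs per nuclear UMI were thus 2.46 in non-epithelial and 2.10 in epithelial control cells, both above the 1.01 of RSPO1-Fc epithelial cells. Of the non-epithelial cells, 3.61% lay above the epithelial median of the nuclear share, while 84.3% lay below the epithelial median of the mitochondrial share. Here the mitochondrial median lay 0.32 above the nuclear one.

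Single genes departed from this. mt-Nd6 was 1.68-fold higher (1.495 to 1.88) in non-epithelial than in epithelial control cells, with 53.1 and 31.6 CPM, and was the 1 mitochondrial gene past 1.5-fold higher. Its share of mitochondrial UMIs was 0.109% in non-epithelial and 0.0494% in epithelial control cells. In free RNA of the control library its interval was 0.0987 to 0.122%, which holds the non-epithelial share and not the epithelial one. The part of free RNA in the mt-Nd6 difference was not tested. mt-Atp8 (78.7 CPM in non-epithelial, 130.9 CPM in epithelial cells) and mt-Co1 (7597 and 12141 CPM) were past 1.5-fold lower. Among nuclear subunits the lowest ratios were those of Ndufa4, a subunit now assigned to complex IV (307 CPM in non-epithelial, 979 CPM in epithelial cells, log2 ratio −1.67), and Uqcr10 (281 and 623 CPM, −1.15). Atp5s, a coupling factor and no structural subunit, lay between them with 4.17 CPM in non-epithelial and 12.0 CPM in epithelial cells (−1.33).

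In each non-epithelial group the nuclear median lay below 0, while the mitochondrial one differed between groups. These medians are not set against the median of all genes of each group. Median log2 ratios over control epithelial cells for the nuclear subunits were −0.60 in cells with macrophage markers, −0.75 with endothelial, −0.71 with fibroblast and −0.33 with smooth muscle or pericyte markers. For the mitochondrially encoded genes they were −0.20, −0.67, −0.04 and 0.03 in the same order of groups. Cells with endothelial markers had the lowest medians of these groups in both genomes, again without the median of all genes beside them. Cells with fibroblast markers had the widest gap, 0.68 log2 units, and 3.04 mitochondrial UMIs per nuclear UMI. In these groups mt-Cytb had 6314 CPM with fibroblast and 6374 CPM with smooth muscle or pericyte markers, against 3593 CPM with macrophage, 2994 CPM with endothelial markers and 5026 CPM in epithelial cells. mt-Nd6 had the highest ratio of the 13 genes in all groups but the smooth muscle or pericyte one, with 85.4 CPM in cells with fibroblast, 64.9 CPM with endothelial and 36.2 CPM with macrophage markers, against 31.6 CPM in epithelial cells. In cells with smooth muscle or pericyte markers it had 39.5 CPM, and mt-Nd4l had the highest ratio (log2 0.73). The part of free RNA in the mt-Nd6 levels of these groups was not tested.

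Isoform genes made the sharpest contrast between cell types. Ndufa4l2, a paralogue of Ndufa4 known from hypoxic cells and pericytes, had 86.0 CPM in control non-epithelial and 1.97 CPM in control epithelial cells, 43.6-fold higher (36.0 to 53.1). Of all Ndufa4 and Ndufa4l2 UMIs, Ndufa4l2 took 91.3% (304 of 333 UMIs, Clopper-Pearson interval 87.7 to 94.1%) in the 21 cells with smooth muscle or pericyte markers. In the other groups it took 8.55% with fibroblast markers, 0.163% with macrophage markers, none of 615 UMIs with endothelial markers, which allows up to 0.488%, and 0.201% in control epithelial cells. Ndufa4l2 UMIs were found in 19 and Ndufa4 UMIs in 7 of these 21 cells, so most of them carried Ndufa4l2. In RSPO1-Fc epithelial cells Ndufa4l2 had 1 UMI beside 61901 of Ndufa4.

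Cox4i2, the form of subunit 4 known from lung and hypoxic cells, followed the same cells. It had 36.9 CPM in control non-epithelial and 1.09 CPM in control epithelial cells, 33.8-fold higher (25.9 to 44.6). Its share of Cox4 UMIs was 27.6% (23.5 to 32.0%) with smooth muscle or pericyte markers, 1.75% with fibroblast markers, 0.263% with macrophage markers, none of 1206 UMIs with endothelial markers (up to 0.249%) and 0.0898% in control epithelial cells. The free RNA of the control library held 0.443% Cox4i2 and 1.03% Ndufa4l2 in their pairs, above the epithelial shares. In control epithelial cells the 132 UMIs of Ndufa4l2 lay in 37 cells and the 73 UMIs of Cox4i2 in 33 of 1881 cells, and the part of free RNA in them was not tested. In RSPO1-Fc epithelial cells Cox4i2 had 4 UMIs and Cox4i1 106075.

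Cox6b2, known as the testis form of subunit 6b, had the lowest log2 ratio of (CPM + 1) between the cultures among nuclear members above the filter. In epithelial cells it had 2.12 CPM in RSPO1-Fc and 17.0 CPM in control cells, 8.03-fold lower (6.76 to 9.59). Within the control library it had 36.9 CPM in non-epithelial and 17.0 CPM in epithelial cells, 2.17-fold higher (1.88 to 2.49). There its share of Cox6b UMIs was 29.5% (25.9 to 33.3%) with fibroblast and 11.1% (7.10 to 16.3%) with smooth muscle or pericyte markers, against 1.36% with macrophage markers, 0.134% with endothelial markers and 2.32% in epithelial cells. Free RNA held 0.324% in the RSPO1-Fc and 2.03% in the control library, beside epithelial shares of 0.187% and 2.32%. The part of free RNA in these shares was not tested. Fibroblast markers, summed over 8 genes, were at 1.05 CPM in RSPO1-Fc and 58.3 CPM in control epithelial cells, and their part in the Cox6b2 difference was not tested.

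**Figure D4:**
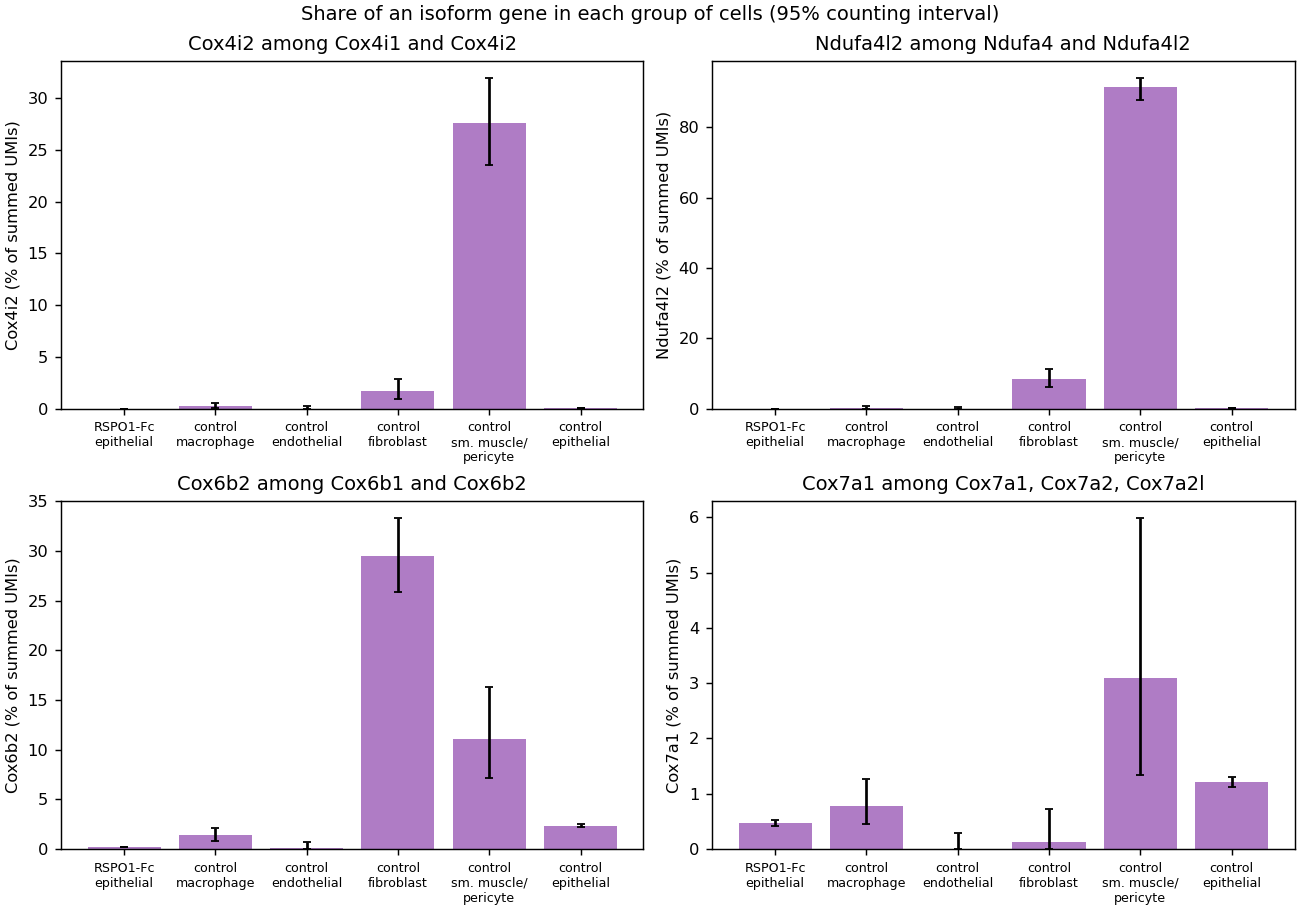
Share (%) of Cox4i2, Ndufa4l2, Cox6b2 and Cox7a1 among the summed UMIs of their isoform sets in RSPO1-Fc epithelial cells, 4 marker groups of control cells and control epithelial cells, with 95% Clopper-Pearson intervals. Ndufa4l2 takes 91.3% and Cox4i2 27.6% of their pairs in cells with smooth muscle or pericyte markers, and Cox6b2 takes 29.5% in cells with fibroblast markers.

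The other isoform sets differed less. Cox7a1, the muscle form of subunit 7a, had 5.56 CPM in RSPO1-Fc and 11.4 CPM in control epithelial cells, 2.06-fold lower (1.82 to 2.33), and took 0.469% and 1.21% of its set. Free RNA held 0.728% in the RSPO1-Fc and 1.98% in the control library, above the epithelial shares, while none of 1264 UMIs of the set in cells with endothelial markers was Cox7a1. Cox7a2, the widely expressed form, had 746 CPM in RSPO1-Fc and 602 CPM in control epithelial cells, and Cox7a2l, which helps complexes III and IV associate, had 435 and 333.5 CPM. Atp5g1, Atp5g2 and Atp5g3 encode the same mature c subunit of the ATP synthase ring, and Atp5g1 took 41.6% of their UMIs in RSPO1-Fc and 39.6% in control epithelial cells. In control non-epithelial cells Atp5g2 led with 43.6%, against 37.3% in control epithelial cells, and it took 49.3% in cells with endothelial markers. These shares are uncertain, because Atp5g1 and Atp5g2 have near-identical copies of their 3′ ends. The muscle form Cox6a2 had 0 UMIs in RSPO1-Fc and 13 in control epithelial cells, and Cox8b had 0 and 3. Cox7b2 and Cox8c had 0 UMIs in both, so Cox7b and Cox8a were the forms seen.

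Other lists of the pathway set the scale, with medians of log2 ratios of RSPO1-Fc over control epithelial cells beside −0.19 for all genes. Counts of higher genes in all these lists stand beside 40.2% of all genes in CPM and 56.9% with TMM factors. Near-identical copies and overlaps were searched for the respiratory chain members only, so genes of these lists were not checked for them. Of 77 mitochondrial ribosomal protein genes, which translate the 13 mitochondrial mRNAs, 65 were higher, and the median was 0.36. They ran from Mrps31 (23.3 CPM in RSPO1-Fc, 42.9 CPM in control, log2 ratio −0.85) and Mrpl24 (−0.35) to Mrps6 (0.95) and Mrpl47 (32.1 and 15.3 CPM, 1.02). The mitochondrial mRNAs and the genes that translate them thus differed in opposite directions. Among 16 electron carriers and entry points, 11 were higher, with a median of 0.16. Cycs, the soluble cytochrome c, had 481 CPM in RSPO1-Fc and 261 CPM in control cells (0.88). Pdss1, which makes the ubiquinone tail, had the highest ratio (15.3 and 7.09 CPM, 1.01), and Pdss2 (−0.41) and Etfb (−0.24, a sign that the TMM shift turns round) the lowest.

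Of 23 genes of nuclear control of mitochondrial genes, 14 were higher, and the median was 0.09. Ppargc1a, the coactivator PGC-1α that drives mitochondrial gene programmes, had 0.982 CPM in RSPO1-Fc and 41.2 CPM in control epithelial cells, 42.0-fold lower. At that RSPO1-Fc level it could pass the filter only through its control level, so the filter fixed its direction. It was the lowest of the list, followed by Yy1 (78.0 and 133 CPM, log2 ratio −0.77). At the high end stood Slirp, which stabilises mitochondrial mRNAs (203 CPM in RSPO1-Fc, 96.3 CPM in control, 1.07), and Esrra, a nuclear receptor that works with PGC-1α (51.5 and 26.95 CPM, 0.91). Tfam, which packages and transcribes mitochondrial DNA, had 46.6 CPM in RSPO1-Fc and 40.7 CPM in control cells (0.19), and the polymerase gene Polrmt had 9.91 and 9.19 CPM (0.10). In control non-epithelial cells 20 of 23 of these genes were lower than in control epithelial cells. Their median was −0.55, beside −0.19 for all genes, most of which were lower too.

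Of 37 assembly factors outside the symbol rule, 21 were higher, with a median of 0.05, from Ttc19 (−0.74) and Sdhaf1 (−0.69) to Atpaf2 (0.85) and Cox17, the copper chaperone of complex IV (325 CPM in RSPO1-Fc, 137 CPM in control, 1.24). Of 13 Krebs cycle genes, 6 were higher, and the median was −0.07, a sign that the TMM shift of 0.34 turns round. Suclg1 (−0.35) was the lowest of these, and Idh3b (0.61) and Suclg2 (0.52) the highest. Among 8 carriers and pores with a median of 0.15, Ucp2, an uncoupling protein homologue, had 217 CPM in RSPO1-Fc and 450.4 CPM in control cells (−1.05). The adenine nucleotide carriers differed in sign, with Slc25a4 at −0.87 and Slc25a5 at 0.88 (1132 CPM in RSPO1-Fc, 613 CPM in control), and Vdac2 was at 0.38. Of 15 glycolysis genes, 11 were higher, with a median of 0.60, from Pgk1 (−1.86) and Hk2 (−0.38) to Pdk1 (1.25) and Eno1 (2.19). In the cytosolic ribosome list, 72 of 95 genes were higher, with a median of 0.42. Its extremes, Rps12-ps3 (4.50), Rpl13a (3.98), Rps6ka2 (−1.60) and Rps6kl1 (−1.52), hold a pseudogene and a pair of kinase genes that share the symbol stem. Between control non-epithelial and epithelial cells the median of all genes was −0.19, so most genes were lower. These lists lay on the low side as well. Medians were −0.59 for the mitochondrial ribosome (76 of 77 lower), −0.67 for electron carriers (16 of 16 lower) and −0.71 for the Krebs cycle (11 of 13). They were −0.44 each for the assembly factors outside the rule and for carriers and pores. Glycolysis genes were the exception, with 13 of 15 higher in non-epithelial cells and a median of 0.19.

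Other measures moved with the comparison of cultures. Of 14 cycling markers, 13 were higher in RSPO1-Fc epithelial cells (9 by 1.5-fold or more), beside 40.2% and 15.1% of all genes, and their median ratio was 1.01 on the log2 scale. Of 5 stem cell markers above the filter, 4 were lower, beside 6013 of all 10047 genes, and 3 of 3 enterocyte markers were higher. Goblet markers (2 of 5 higher) and Paneth markers (3 of 6 higher) were mixed and not far from the 40.2% of all genes. These marker counts are too small to set apart from that share. Macrophage markers summed to 4.11 CPM in RSPO1-Fc and 91.1 CPM in control epithelial cells, with Tyrobp, C1qb, C1qc and Adgre1 at 0 in RSPO1-Fc. All 6 above the filter were at least 1.5-fold lower, beside 32.3% of all genes. At that RSPO1-Fc sum they could pass the filter only through their control level, so the filter fixed their direction. Endothelial markers summed to 32.4 CPM in RSPO1-Fc, with Kdr at 0, and 59.1 CPM in control epithelial cells. Smooth muscle or pericyte markers summed to 14.5 CPM in RSPO1-Fc, with Cspg4 at 0, and 58.6 CPM in control epithelial cells, and T, NK and B cell markers to under 1 CPM in both. Their part in the respiratory chain differences was not tested. The mitochondrial share within the control library was lower in non-epithelial than in epithelial cells. Epithelial cells were also split into 4 equal bins by the depth of their own library. The difference between cultures was present in each bin, from 4.03% (RSPO1-Fc) against 6.62% (control) in the shallowest to 3.14% against 5.84% in the deepest. Depth was not matched, with medians of 13067 against 15745 UMIs in the shallowest and 39661.5 against 62128 in the deepest bin.

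**Figure D5:**
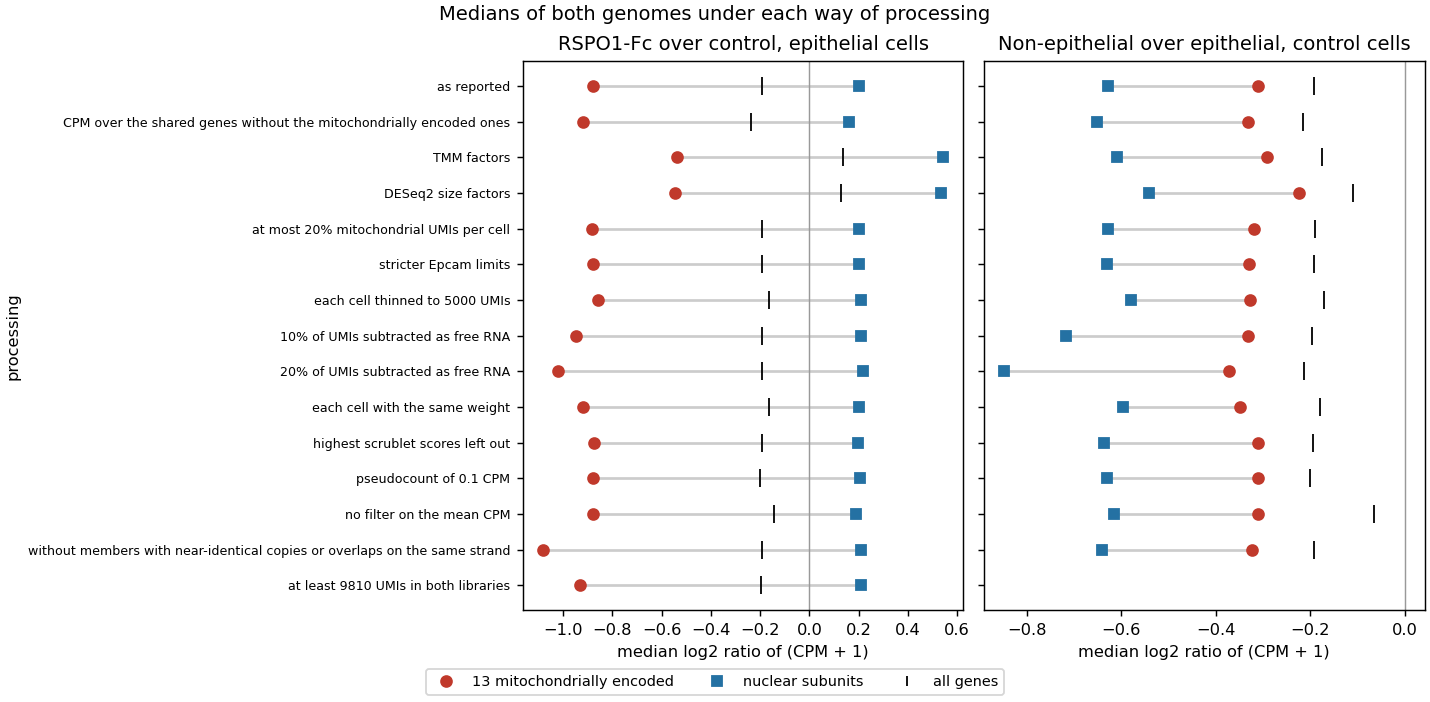
Median log2 ratio of (CPM + 1) of the 13 mitochondrially encoded genes, the nuclear subunits and all genes under each way of processing (rows), for RSPO1-Fc over control epithelial cells (left) and control non-epithelial over control epithelial cells (right). On the left the mitochondrial median lies below 0 and the nuclear one above 0 in every row, and on the right both lie below 0 with the nuclear one lower in every row.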

How the data were processed

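Organoid cells of 1 RSPO1-Fc and 1 control culture were measured with 3′ droplet RNA sequencing. The files hold raw UMI counts per gene and barcode as deposited by the authors, neither normalized nor filtered for cells. The 10x v2 kit and alignment to mm10 are stated per the labels' protocols. Cell Ranger (2.1.1) and Seurat (3.1.1) come from the submitters' processing notes. Per the file headers, the control matrix was written by software version 3.1.0, and it lists 31053 genes and 6794880 barcodes, the RSPO1-Fc matrix 27998 and 737280. The labels state the v2 kit for both libraries, while these lists differ in length, so the kit of the control library is uncertain. Mean reads per cell were 131291 (RSPO1-Fc) and 58414 (control), per the labels.

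Tables were joined on Ensembl identifiers. UMI counts were summed over the cells of a group and expressed as CPM of the shared genes. Ratios had a pseudocount of 1 CPM, which understates ratios of low genes. Genes needed a mean of 5 CPM, or 20 CPM for single marker groups. With 1 library per group there is no test: edgeR 4.0.16 (TMM) and DESeq2 1.42.0 gave only scaling factors. Intervals are Clopper-Pearson (conditional on the summed UMIs for a ratio) and cover counting error only, and 3 counts set the limit of a share of 0. Neither doublets nor cells rich in mitochondrial UMIs were removed. As alternatives, 61 RSPO1-Fc and 41 control barcodes with the highest scrublet scores (scanpy 1.11.5) were left out, among others. Cells were grouped by at least 10 UMIs of at least 3 genes of a marker list, 2 times the next list. Members were called uncertain when another gene overlaps them on the same strand or matches at least 91 of their last 300 bases at 98% (blastn 2.17.0), which holds for 24 of 105. Scripts were tested on simulated data. Genes named are all mitochondrial ones, per complex the most counted, 2 highest and 2 lowest, all isoform sets, and the extremes of each list. Those of cell comparisons and Nrf1, Tfam, Polrmt, Cycs, Ndufa2, Ndufaf4, mt-Cytb and mt-Nd6 by cell group were chosen after their values were seen. The members, lists and rules were chosen with earlier results of these data known. Fastkd4 was not matched. One gene that the rule names is not reported here.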

Additional observations from a re-analysis of the deposited data

How the results depend on the processing

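The mitochondrial and nuclear medians of both comparisons and their differences kept their sign under every alternative run, while the median of all genes in the comparison of cultures, −0.19, became 0.13 with TMM and 0.12 with DESeq2 factors. For RSPO1-Fc over control epithelial cells the mitochondrial median of −0.88 became −0.92 in CPM without mitochondrial genes, −0.54 with TMM and −0.55 with DESeq2 factors, −0.86 after thinning, −0.95 and −1.02 after subtracting 10% and 20% free RNA, −0.92 with equal weight for cells, −0.93 with the control's UMI limit in both libraries and −1.08 without uncertain members, an alternative chosen after seeing the data. The nuclear median of 0.20 became 0.16 without mitochondrial genes, 0.54 with TMM and 0.53 with DESeq2 factors. The difference of −1.08 became −1.16 and −1.24 with free RNA subtracted, −1.12 with equal weights, −1.14 with the common UMI limit and −1.29 without uncertain members. The 11 subunits past 1.5-fold became 37 with TMM and with DESeq2 factors, and 5 at a 2-fold limit. For control non-epithelial over epithelial cells the mitochondrial median of −0.31 became −0.33 without mitochondrial genes, −0.22 with DESeq2 factors, −0.37 with 20% free RNA subtracted and −0.35 with equal weights. The nuclear median of −0.63 became −0.54 with DESeq2 factors and −0.72 and −0.85 with 10% and 20% free RNA subtracted, and the difference of 0.32 became 0.48 at 20%. The cause was not tested. No paired analysis was possible because each group holds 1 library. With 1 library per group only counting error is measured: chemistry, reference and mouse of origin cannot be told apart from RSPO1-Fc.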

Other observations

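Within each library, epithelial cells were split by the markers of a cell state, taking the 10% with the most marker UMIs after thinning each cell to 5000 UMIs. The 188 control cells with the most cycling marker UMIs had a median mitochondrial share of 5.09%, against 6.34% in the other control cells, and a nuclear share of 3.36%, against 2.90%. In the RSPO1-Fc library the 275 highest cycling cells had 3.30%, against 3.42% in the others, and a nuclear share of 3.70%, against 3.56%. By the mean, the mitochondrial share was 5.98% in cycling and 6.78% in other control cells, while in the RSPO1-Fc library it was 4.07% in cycling and 4.08% in other cells. The highest 10% began at 14 cycling marker UMIs in the RSPO1-Fc and at 8 in the control library, so these cells are not matched. With these unlike limits, the gap between the libraries was present in cycling and other cells. Control cells with the most goblet marker UMIs had a nuclear share of 3.28%, against 2.90% in the others, and those with the most Paneth marker UMIs 2.69%, against 2.98%. In the RSPO1-Fc library the same splits gave 3.62% against 3.56% for goblet and 3.44% against 3.58% for Paneth markers. These groups are defined by measured markers, their differences were not tested, and cells of 1 library are not replicates.

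At the Epcam limit, the 3 control cells with 5 UMIs had a median mitochondrial share of 5.43% and the 4 cells with 4 UMIs one of 3.56%. In the RSPO1-Fc library the 9 cells with 5 UMIs had 4.54% and the 7 cells with 4 UMIs 3.57%.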
